A study of Mus musculus with 2 samples.

Results

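The miRNA genes best known from liver, gut and pancreas were followed in small RNA libraries of mouse embryonic heart. They were 8 genes, Mir122, Mir192, Mir194-1, Mir194-2, Mir215, Mir375, Mir216a and Mir217, chosen by name from the 1973 miRNA genes in the deposited count tables, and all 8 had an entry. The series holds 1 group of 2 libraries, both of heart tissue from embryos of the mouse strain B6NCrl at embryonic day 14.5, with no treatment, mutant or control group. The libraries are numbered biological replicates 1 and 2 and were collected on 15 and 17 July 2014. Both are labelled as a single heart from pup 1 of pregnant female 2, while the sex entry names a pool of males and females. So the labels do not settle whether a library is 1 heart or a pool, or whether the 2 libraries come from different animals. The spread between them therefore measures the difference between these libraries, which may be partly technical. No liver, gut or pancreas library was analysed here, so levels are set only against the other miRNAs of the same hearts.

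A microRNA (miRNA) is cut from a hairpin in a longer transcript, and its seed, the bases from position 2 to 8 of the mature strand, guides it to target messenger RNAs. Mir122 is the miRNA best known from hepatocytes, where it is among the most abundant miRNAs. The miR-192, miR-194 and miR-215 miRNAs are known from epithelium of liver, intestine and kidney, and are made by paired hairpins at separate loci. Mir375 is known from the endocrine cells of pancreas and gut, and Mir216a and Mir217 from the exocrine (acinar) cells of the pancreas.

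The mature sequences are shown because they decide how the genes can be told apart by reads. RefSeq sequences (build GRCm38.p6, the assembly of mm10) were matched for 7 of the 8 genes, all but Mir122, with only the 5p arm for Mir375. Each is written from 5′ to 3′ with the seed in capitals. The first pair shares a seed between Mir192 and Mir215.
mmu-miR-192-5p: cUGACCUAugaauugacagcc
mmu-miR-215-5p: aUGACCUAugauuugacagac
Counted from 1 at the 5′ end of miR-192-5p, the strands differ by C1A, A12U and C20A, and 18 of 21 bases are shared. Among the 1738 mature sequences in the table, which cover 1058 genes, no gene other than Mir192 and Mir215 has this seed. Their longest shared stretch with any other annotated hairpin was 13 bases for Mir192 and 11 bases for Mir215, so a read of either mature strand fits no other hairpin among those compared. The next sequence is identical in Mir194-1 and Mir194-2, and below it are the opposite arms of those hairpins, which differ.
mmu-miR-194-5p: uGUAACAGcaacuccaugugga
mmu-miR-194-1-3p: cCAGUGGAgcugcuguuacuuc
mmu-miR-194-2-3p: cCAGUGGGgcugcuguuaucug
The 3p arms differ by A8G, C19U, U20C and C22G, with 18 of 22 bases shared. The shared stretch of the Mir194-1 and Mir194-2 hairpins is 22 bases long, the whole length of miR-194-5p. A read that lies within that stretch matches both hairpins. In the deposited tables, reads mapping to several places are kept in a line of their own, which held 30.6% of reads in replicate 1 and 30.1% in replicate 2. The counts of both miR-194 genes are therefore uncertain and can be too low. The pancreas hairpins on chromosome 11 have seeds found in no other gene of the table.
mmu-miR-216a-5p: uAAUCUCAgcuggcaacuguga
mmu-miR-217-5p: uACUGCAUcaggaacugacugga
Of the 8 genes, only Mir194-1 and Mir194-2 shared a stretch of 18 or more bases with another of the 2202 annotated miRNA hairpins compared. The whole genome sequence was not searched. The tables count reads per gene, so how many came from each arm of a hairpin was not measured.

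Levels are given as CPM, counts of the strand column with the larger total, scaled to 1000000. The totals before scaling were 4327424 in replicate 1 and 3839984 in replicate 2. In CPM, 3 counts are 0.693 for replicate 1 and 0.781 for replicate 2. The tissue label was met by the miRNAs hosted in heart myosin genes, with Mir208b at 66568 ± 359 CPM (SD, n = 2), Mir208a at 7962 ± 2009 CPM and Mir499 at 3023 ± 179 CPM. Mir1a-1 and Mir133a-1, heart muscle miRNAs that have near-identical copies elsewhere in the genome, had 13 and 10 counts and 12 and 12 counts in replicates 1 and 2, and such copies can be under-counted here. Intervals given below are exact 95% Poisson or conditional binomial intervals and cover counting error only. Mature miRNAs are of nearly equal length, so levels were not divided by length.

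Of the 8 genes, 6 were measured well above the limit of counting in the heart libraries, and the 2 exocrine pancreas genes were not. Together the 8 genes gave 529.9 CPM (replicate 1) and 494.8 CPM (replicate 2), a mean of 512 ± 24.8 CPM (SD, n = 2), which is 0.0512% ± 0.00248 of all gene counts. Mir208b alone stood 130.1 ± 7.00 times above this sum. With at least 10 counts in each library as the threshold for detection, 6 of 8 genes were detected, against 17.1% of all genes in the tables (337 of 1973). Most entries in the tables are hardly read in heart, with 1355 genes at 0 counts in replicate 1 and 1361 in replicate 2. The share of 17.1% is therefore a low mark, and the 8 genes, chosen by name, cannot be called enriched beside it. Among the 337 detected genes the median level was 104.4 CPM, and of the 6 detected genes described here only Mir215 lay above it. Mir194-1 and Mir194-2 are placed there without the reads that match both.

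**Figure D1:**
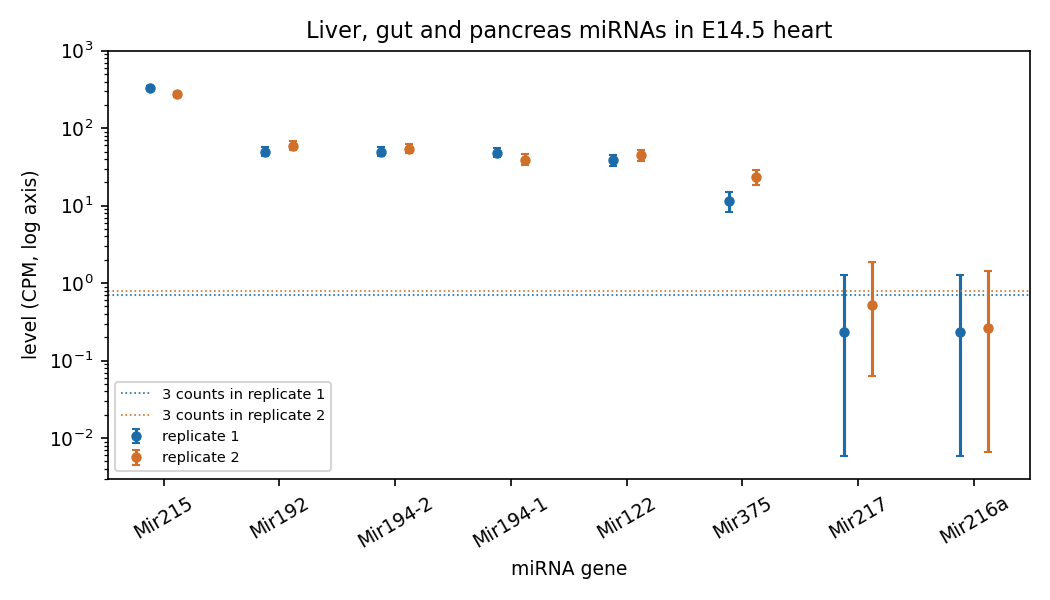
Level of each gene in CPM on a log axis in replicate 1 (blue) and replicate 2 (orange), with exact 95% Poisson intervals as bars; dotted lines mark 3 counts in each library. Mir215 lies highest at 331.8 and 272.9 CPM, 5 genes lie between 11.3 and 59.4 CPM, and Mir217 and Mir216a lie below the dotted lines.

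Among the reads counted, Mir215 was the most abundant of the 8. Reads that match both miR-194 hairpins are left out. The place of Mir215 above the miR-194 genes and its share of the sum hold only for the reads counted. Mir215 had 1436 counts in replicate 1 and 1048 in replicate 2, or 331.8 CPM (interval 314.9 to 349.5) and 272.9 CPM (256.6 to 290.0). These made a mean of 302 ± 41.7 CPM (SD, n = 2) and 58.9% ± 5.28 of the sum of the 8, with a rank of 116 in replicate 1 and 126 in replicate 2 among all genes. The hairpin lies on chromosome 1 (185313581 to 185313692, plus strand, mm10). There it overlaps an exon of the antisense RNA gene 2010103J01Rik on the same strand and an intron of Iars2, a gene for an isoleucyl-tRNA synthetase, on the opposite strand. No count of Mir215 in either library came from the opposite strand. The genes nearest to it in level over the 2 libraries were Mir223, a miRNA of myeloid cells, at 318 ± 39.0 CPM and Mir339 at 307 ± 8.54 CPM, with distances of 0.11 and 0.16 on the log2(CPM + 1) scale.

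Mir194-1 is the neighbour of Mir215, with 195 bases between the hairpins (chromosome 1, 185313319 to 185313385, plus strand). It had 209 and 151 counts in replicates 1 and 2, or 48.3 CPM (interval 42.0 to 55.3) and 39.3 CPM (33.3 to 46.1), a mean of 43.8 ± 6.35 CPM (SD, n = 2). Mir215 stood 6.87 times above it in replicate 1 (interval 5.94 to 7.98) and 6.94 times in replicate 2 (5.85 to 8.29), so the ratio of these neighbours was nearly the same in both libraries. On the log2(CPM + 1) scale the difference was 2.76 ± 0.01. Since miR-194-5p is shared with Mir194-2, the level of Mir194-1 can be too low and this ratio too high.

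Mir192 and Mir194-2 form the second pair, with 115 bases between the hairpins on chromosome 19 (6264844 to 6264932 and 6264643 to 6264728, plus strand). No other gene is annotated across them, and the nearest gene, Atg2a, ends 2307 bases before Mir194-2. Mir192 had 216 and 228 counts in replicates 1 and 2, or 49.9 CPM (interval 43.5 to 57.0) and 59.4 CPM (51.9 to 67.6). Mir194-2 had 215 and 210 counts, or 49.7 CPM (43.3 to 56.8) and 54.7 CPM (47.5 to 62.6). The means were 54.6 ± 6.69 CPM for Mir192 and 52.2 ± 3.54 CPM for Mir194-2 (SD, n = 2), and their intervals overlapped in each library. Mir192 stood 1.00 times (interval 0.828 to 1.22) and 1.09 times (0.896 to 1.32) the level of Mir194-2, a difference of 0.06 ± 0.08 on the log2(CPM + 1) scale. Reads of miR-194-5p that match both hairpins are left out of Mir194-2 as well, so its level can be too low and the order of Mir192 and Mir194-2 is not settled by these counts.

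**Figure D2:**
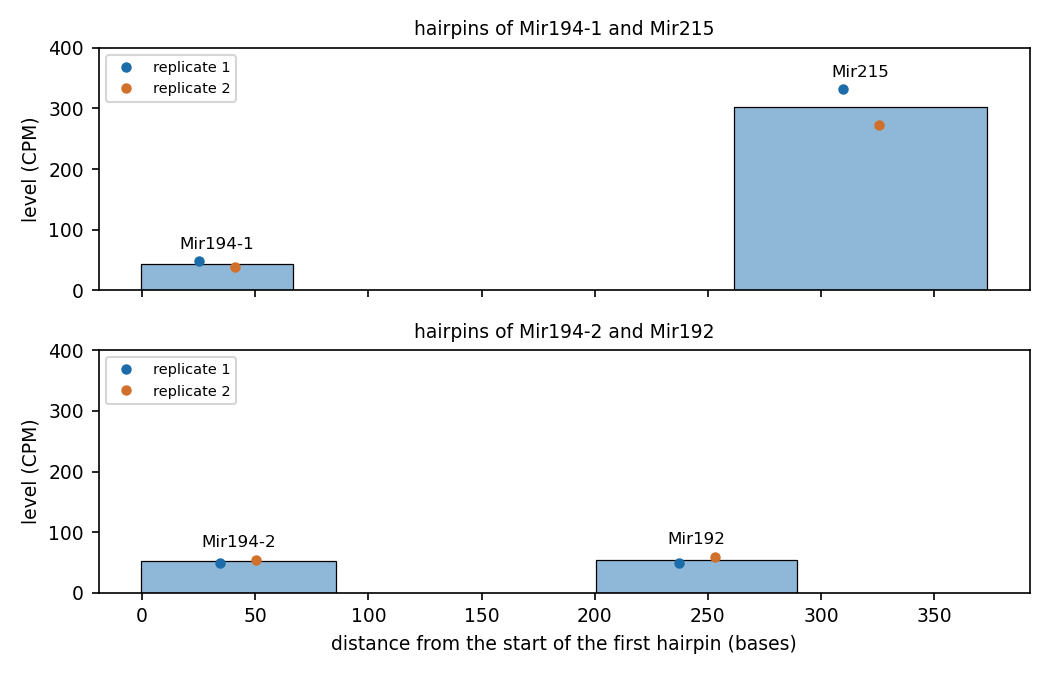
The paired hairpins drawn to scale by distance in bases from the start of the first hairpin of each pair; bar height is the mean level in CPM over the 2 libraries and points are the libraries. Mir215 stands 6.87 and 6.94 times above Mir194-1 in replicates 1 and 2, whereas Mir192 and Mir194-2 lie at nearly the same height; reads shared by the miR-194 genes are left out of both.

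Between the pairs, Mir215 exceeded Mir192, the gene of the same seed. The ratio was 6.65 in replicate 1 (interval 5.76 to 7.71) and 4.60 in replicate 2 (3.98 to 5.33), so it was lower in replicate 2 and the counting intervals did not overlap. The mean difference was 2.45 ± 0.37 on the log2(CPM + 1) scale. Counts of the shared seed (Mir192 with Mir215) summed to 357 ± 35.0 CPM. The miR-194 genes summed to 96.0 ± 2.81 CPM, a sum that leaves out reads mapping to both. Mir194-1 stood at 0.972 times the level of Mir194-2 in replicate 1 (0.800 to 1.18) and 0.719 times in replicate 2 (0.579 to 0.891), a difference of -0.25 ± 0.30 on the log2(CPM + 1) scale, which is smaller than its spread. The 4 genes of both pairs made up 88.3% ± 3.10 of the sum of the 8 (453 ± 37.8 CPM), again without reads mapping to both miR-194 genes. The genes nearest in level to Mir192 were Mir331 (55.5 ± 4.69 CPM) and Mir412 (57.0 ± 5.16 CPM). Nearest to Mir194-2 were Mir302c (53.2 ± 2.07 CPM) and Mir192 itself, and nearest to Mir194-1 were Mir138-1 (41.7 ± 0.808 CPM) and Mir7689 (49.7 ± 6.54 CPM).

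Mir122, the hepatocyte miRNA, had 166 counts in replicate 1 and 171 in replicate 2. These gave 38.4 CPM (interval 32.7 to 44.7) and 44.5 CPM (38.1 to 51.7), a mean of 41.4 ± 4.36 CPM (SD, n = 2), at rank 211 and 214. The libraries overlapped in their counting intervals. Mir208b stood 1729 and 1501 times above it in replicates 1 and 2. The hairpin (chromosome 18, 65248861 to 65248926, plus strand) overlaps an exon of the long non-coding RNA gene AC157910.3 on the same strand. It was the only gene of the 8 with counts on the opposite strand, 8 in replicate 1 and 5 in replicate 2. Mir122 did not differ beyond the spread of the libraries from Mir194-1, which lay above it in replicate 1 and below it in replicate 2. Nearest to it in level were Mir377 (40.0 ± 3.03 CPM) and Mir495 (41.3 ± 9.02 CPM), both genes of chromosome 12.

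Mir375, the endocrine miRNA, was lower than the genes above. It had 49 counts in replicate 1 and 89 in replicate 2, or 11.3 CPM (interval 8.38 to 15.0) and 23.2 CPM (18.6 to 28.5), a mean of 17.3 ± 8.38 CPM (SD, n = 2). It was the lowest of the 6 detected genes in both libraries, and its intervals did not overlap between them. The hairpin (chromosome 1, 74900658 to 74900721, minus strand) lies between Cryba2 and Cfap65 outside other annotated genes. Nearest to it in level were Mir363 (17.0 ± 5.07 CPM) and Mir96, a sensory and epithelial miRNA, with 52 and 113 counts in replicates 1 and 2 (20.7 ± 12.3 CPM).

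The exocrine pancreas genes were at the limit of counting. Mir216a had 1 count in each library, and Mir217 had 1 in replicate 1 and 2 in replicate 2. The upper bounds were 1.29 and 1.45 CPM for Mir216a and 1.29 and 1.88 CPM for Mir217. These lay below the lower bound of every other gene of the 8 in the same library, the closest being Mir375 with 8.38 and 18.6 CPM. Both hairpins lie on chromosome 11 (28757012 to 28757083 and 28763728 to 28763835, plus strand) in introns of the long non-coding RNA gene Gm12082, with 6644 bases between them. Mir216b, among the other liver and pancreas miRNAs listed below, also had 1 count in each library. The order of Mir216a and Mir217 is not resolved at this depth. The ratio of Mir217 to Mir216a was 1 (interval 0.0127 to 78.5) in replicate 1 and 2 (0.104 to 118) in replicate 2.

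**Figure D3:**
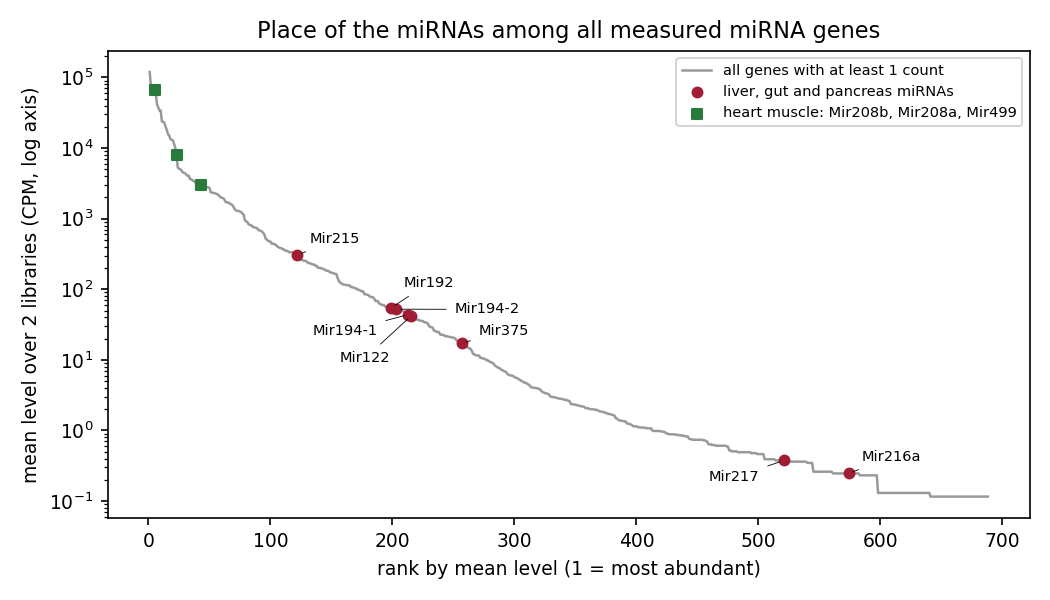
Mean level in CPM (log axis) against rank for all genes with at least 1 count, with the 8 genes in red and 3 heart muscle miRNAs in green. Mir215 lies at 302 CPM with 121 genes above it, and Mir217 and Mir216a lie at 0.376 and 0.246 CPM on the flat end of the curve.

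In order of mean level the genes ran Mir215, Mir192, Mir194-2, Mir194-1, Mir122, Mir375, Mir217 and Mir216a. Among the reads counted, Mir215 stood above all others in both libraries, and Mir375 below the 5 genes that precede it. Reads matching both miR-194 hairpins are left out, so Mir194-1 and Mir194-2 can stand too low in this order. Within the middle group the means lay between 41.4 and 54.6 CPM. Neighbours there had means that lay close: Mir192 and Mir194-2, Mir194-2 and Mir194-1, and Mir194-1 and Mir122 each differed by less than the sum of their SDs. Within replicate 2, however, the ratio of Mir194-1 to Mir194-2 was 0.719 (interval 0.579 to 0.891), so its counting interval excluded 1. Mir192 and Mir122, which are not neighbours in this order, kept the same order in both libraries. Mir192 had 49.9 and 59.4 CPM in replicates 1 and 2, against 38.4 and 44.5 CPM for Mir122.

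Other miRNAs known from liver and pancreas differed widely in heart. Of 9 listed, 7 had a row and 4 were detected. Mir148a, abundant in liver and pancreas and also made in many other tissues, had 1436 ± 0.869 CPM and gave most of that list's 1509 ± 5.43 CPM. Next came Mir7a-1 (listed as Mir7-1), a miRNA of endocrine and nerve cells whose mature strand is also made by another locus, at 35.8 ± 1.64 CPM. Mir802, known from liver and pancreas, had 9 counts in each library, just under the threshold for detection. Mir216c and Mir122b had no matching row.

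The direction of the difference between the libraries was not shared by the 8 genes. Of the 6 detected genes, 4 were higher in replicate 2 and 2 were lower, beside 59.6% of all 337 detected genes higher in replicate 2. That background share depends on the scaling and was 44.5% with median-of-ratios size factors, which shifted the median of all detected genes by -0.11 on the log2 scale, while 4 of the 6 genes stayed higher. The median log2(CPM + 1) difference, replicate 2 minus replicate 1, was 0.17 over the 6 genes and 0.08 over all detected genes. Of the 6, the counting interval of the ratio excluded 1 for Mir215 and Mir375 (2 of 6), beside 52.2% of all detected genes.

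The members of each pair differed between the libraries in the same direction, a pattern noticed after the values were seen. Replicate 2 stood at 0.822 times replicate 1 for Mir215 (interval 0.759 to 0.891) and at 0.814 times for Mir194-1 (0.656 to 1.01). For the pair on chromosome 19 the ratio was 1.19 for Mir192 (0.983 to 1.44) and 1.10 for Mir194-2 (0.906 to 1.34). Of these 4 intervals, that of Mir215 alone excluded 1. The directions held under every scaling tried, although Mir194-2 was higher in replicate 2 by as little as 0.02 on the log2(CPM + 1) scale. Mir122 was 1.16 times as high in replicate 2 (0.932 to 1.45). With 1 library on each side these ratios compare libraries and no p-value is given.

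**Figure D4:**
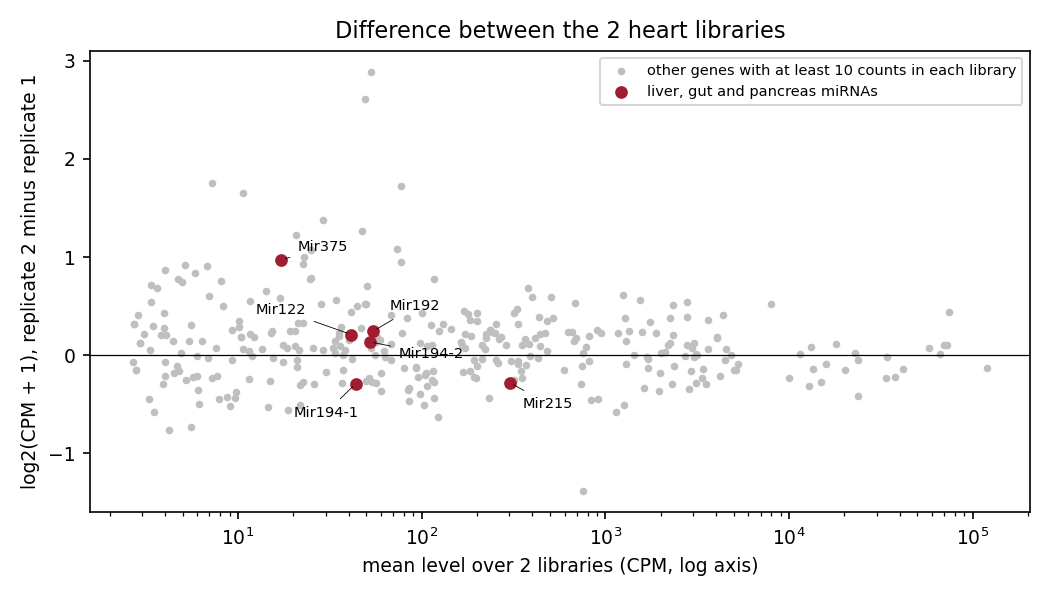
Difference in log2(CPM + 1), replicate 2 minus replicate 1, against mean CPM (log axis) for the 337 genes with at least 10 counts in each library, with the 6 detected genes in red. Mir215 and Mir194-1 lie together at -0.28 and -0.29, Mir192, Mir194-2 and Mir122 lie between 0.14 and 0.25, and Mir375 lies at 0.97.

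Among the 6 detected genes, Mir375 had the largest ratio between the libraries, with replicate 2 at 2.05 times replicate 1 (interval 1.43 to 2.96). It was the only one of the 6 past 2-fold, a difference reached by 4.75% of all detected genes (16 of 337). With TMM and with median-of-ratios scaling its ratio was 1.96 and 1.89, just below that mark. The epithelial list, holding the miR-200 and miR-183 families with Mir203, Mir205 and Mir31, moved in the same direction. Its sum was 927 CPM (replicate 1) and 1538 CPM (replicate 2), 11 of 11 members were higher in replicate 2, and 0 members were at 0 counts. The ratios of replicate 2 over replicate 1 ran from 1.14 to 7.95. Members of the same family need not vary independently, so the 11 are not 11 separate observations. The share of all detected genes higher in replicate 2 was 59.6%, and 44.5% with median-of-ratios size factors, under which all 11 stayed higher. Rises past 2-fold were not confined to the epithelial list. Mir137 had 13.2 and 85.7 CPM in replicates 1 and 2. Mir7b, of the further liver and pancreas list, had 12 and 45 counts. The leading members of the epithelial list were Mir429 (381 ± 126 CPM) and Mir203 (243 ± 28.6 CPM). The list of red blood cells, which the embryonic liver makes at this age, moved the other way, at 1243 CPM in replicate 1 and 538 CPM in replicate 2. It was led by Mir451a (753 ± 477 CPM) and Mir144 (84.0 ± 14.6 CPM). Of its members, 3 of 3 with a row were lower in replicate 2, with TMM and median-of-ratios scaling too. Of all 337 detected genes, 59.6% were higher and 136 lower in replicate 2 by CPM. With median-of-ratios size factors only 44.5% were higher, so under that scaling most detected genes were not higher in replicate 2. Members of this list need not vary independently either, so the 3 are not 3 separate observations. Mir451a carried most of the difference, with 1090 CPM in replicate 1 and 415 CPM in replicate 2. The sum of the other 2 was 153 CPM (replicate 1) and 122 CPM (replicate 2), a ratio of 0.798, against 0.432 for the whole list. The part of either list in the values of the 8 genes was not tested, and in whole tissue, more cells of a type and more RNA per cell cannot be told apart.

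**Figure D5:**
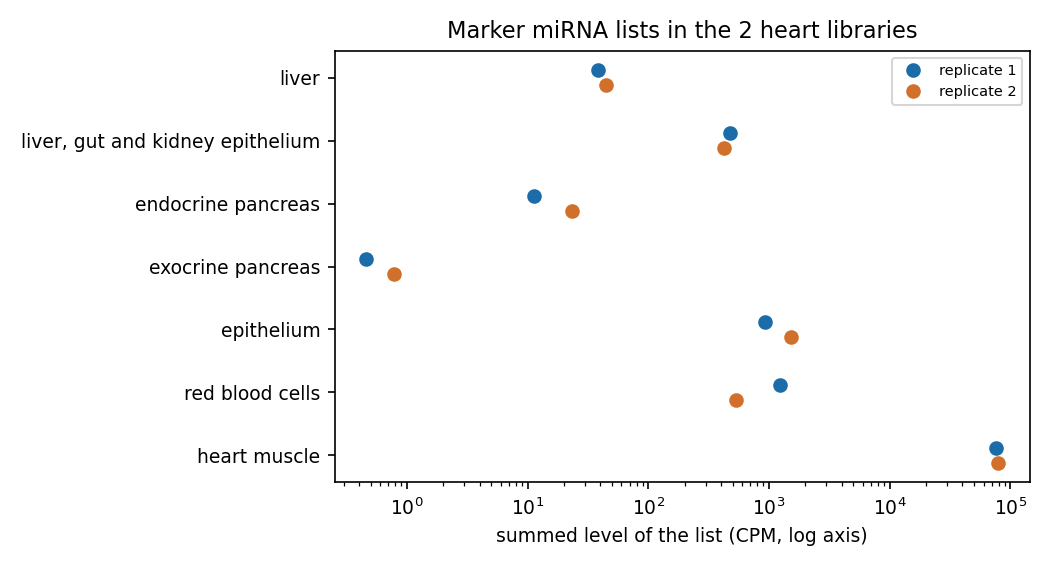
Summed level in CPM (log axis) of the marker lists, without the further liver and pancreas genes, in replicate 1 (blue) and replicate 2 (orange). Heart muscle lies at 75758 and 79361 CPM, the epithelial list is higher in replicate 2 (927 and 1538 CPM), the red blood cell list is lower (1243 and 538 CPM), and the exocrine pancreas list lies below 1 CPM in both.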

How the data were processed

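Small RNA was sequenced from 2 embryonic heart libraries, with a size range below 30 and no unit per the labels. The authors deposited raw read counts per miRNA gene (mm10, GENCODE M4, per the descriptions deposited with the tables), 1 table per library, with both strands together and each strand alone. The aligner and the counting program were not given in the sources. Of all reads, 53.1% in replicate 1 and 52.8% in replicate 2 lay on genes in the column used. The 4 lines without a gene were not counted in totals. Symbols, places and hairpins came from GENCODE M21, which named 1894 of 1973 identifiers, and mature sequences from RefSeq. Log2 values use a pseudocount of 1 CPM.

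With 1 group there was no difference to test. Genes named are the 8, the 2 nearest to each detected gene in level by distance of log2(CPM + 1) over both libraries, miRNA genes within 10 kb, and the 2 highest members of each further list. Mir802, Mir499, Mir1a-1, Mir133a-1, Mir216b, Mir216c, Mir122b, Mir137 and Mir7b were named as well. The genes, lists and pairs were chosen with earlier results of these data known. The labels name no molecular identifiers, so reads cannot be taken as independent molecules and all intervals show counting error alone. Calculations, tested on simulated data, used Python 3.11.15, scipy 1.17.1, numpy 2.4.6 and pandas 2.3.3. Alternative scaling used R 4.3.3 with edgeR 4.0.16 (TMM) and DESeq2 1.42.0 (median-of-ratios). Other alternatives were the unstranded column, other totals, pseudocounts and count minimums, thinning, and each replicate left out.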

Additional observations from a re-analysis of the deposited data

Results flagged for a closer look

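Mir122 had reads on the strand opposite to its hairpin, in a column of the tables that the levels above do not use. There were 8 such counts in replicate 1 and 5 in replicate 2, above the 3 counts that a count of 0 allows. They made up 4.60% and 2.84% of the counts on both strands of Mir122, beside 4.72% and 4.58% over all genes. The other 7 genes had 0 counts there, and 18 of 1973 genes had more than 3 opposite-strand counts in both libraries.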

How the results depend on the processing

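The number of detected genes was 6 of 8 with count minimums of 5, 10 and 20, and 8 with a minimum of 1. It was also 6 with the unstranded column, in each library alone and with the deeper library thinned. Minimums from 5 to 20 had to give the same number, as the detected genes had at least 49 counts and Mir216a and Mir217 at most 2. Thinning could hardly change it for the same reason. The summed level moved from 512 CPM to 582 without the most abundant gene in the total and to 271 when scaled to all reads. TMM scaling, median-of-ratios scaling and the unstranded column moved it by less than its SD, and it was 494.8 to 529.9 CPM with a replicate left out. The mean of Mir375 fell to 11.3 CPM without replicate 2, against 17.3 CPM. For single genes, 30 of 40 levels under another scaling or strand column lay within 1 SD of the value given. The other 10 came from those changed totals. TMM and median-of-ratios factors balance out over the 2 libraries, so they can hardly move a mean over both and show nothing about its stability. Under them the means of single genes shifted by -1.44% to 0.481%. Scaled to all reads, Mir375 fell to 9.13 CPM and still lay within 1 SD, as its SD was 8.38 CPM. With 2 libraries, a level with 1 left out always lies within 1 SD of the mean and shows nothing about stability. The median difference between libraries was 0.062 with median-of-ratios size factors, in place of 0.17. None of the 24 differences of single genes under another scaling or strand column changed direction; a pseudocount cannot change it. The difference of Mir215 over Mir194-1 was 2.78 and 2.54 with pseudocounts of 0.1 and 10 CPM, in place of 2.76. That of Mir217 over Mir216a was 0.39 with 0.1 CPM, in place of 0.14, as both are at 1 or 2 counts. Depth limits Mir216a and Mir217 most, and reads shared by the miR-194 hairpins limit that pair.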
